A study of Homo sapiens with 4 samples.

Results

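HAND1, HAND2, TWIST1, TWIST2, SNAI1, SNAI2, PRRX1 and PRRX2 are 8 transcription factor genes of embryonic mesenchyme, taken by symbol as 4 pairs of paralogues. All 8 were found among the 25690 genes of the count table, and all 8 passed the filter on low counts. RNA was measured by sequencing of polyA-selected libraries from H9 cells, an established human embryonic stem cell line, at day 7 of a culture that the series calls non-neural ectoderm, the tissue next to the neural plate that gives epidermis, placodes and neural crest. There were 2 libraries with the genotype label TFAP2A knockout and 2 wild-type (WT) libraries. TFAP2A encodes an AP-2 transcription factor of the ectoderm. The titles of the knockout samples name its paralogue TFAP2C instead, so "knockout" here means the libraries that carry the genotype label. The labels do not say how the allele was made, whether the line was 1 clone or how the cells were grown. Neither do the labels tie the libraries to separate cultures, and p-values therefore measure the spread between libraries, which may be technical.

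HAND and TWIST factors are basic helix-loop-helix (bHLH) proteins. They bind DNA at E-boxes in pairs with one another or with the widely expressed E proteins, and ID proteins, which lack the basic region, take up partners without binding DNA. HAND1 and HAND2 act in the developing heart, limb, neural crest and extraembryonic tissues. TWIST1 and TWIST2 act in mesoderm, cranial mesenchyme and dermis. SNAI1 and SNAI2 are zinc finger repressors of E-cadherin and other epithelial genes when epithelial cells become mesenchymal. PRRX1 and PRRX2 are paired-related homeodomain factors of limb and craniofacial mesenchyme.

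Total counts ran from 19305868 to 21797850 in knockout libraries and from 17838204 to 17945210 in WT libraries. Levels are in CPM, which sets each count against the TMM-scaled total of its library, and 3 counts correspond to 0.138 to 0.168 CPM. TFAP2A was at 133 and 121 CPM in knockout libraries and 171 and 198 CPM in WT libraries (log2 fold change -0.54, SE 0.07, adjusted p = 0.000125). TFAP2C was at 8.89 and 5.77 CPM in knockout libraries and 27.5 and 30.6 CPM in WT libraries (log2 fold change -1.99, SE 0.17, adjusted p = 6.66e-06). Neither gene was at 0 in a knockout library, and a gene's total count cannot place its reads in a deleted or a kept exon, so the label is checked only in part. The non-neural ectoderm label was read against 13 marker genes, whose summed level was 2447 to 2538 CPM in knockout libraries and 3318 to 3599 CPM in WT libraries. Of these 13, 8 were lower in knockout libraries and 5 did not pass, beside 22.3% lower among all genes tested. The 8 include TFAP2A itself, the gene of the genotype label, so its fall is not a separate check. All fold changes are knockout over WT, and adjusted p-values come from edgeR's quasi-likelihood fit across 15643 genes, corrected over all of them by the Benjamini-Hochberg method. A gene passed the test at an adjusted p under 0.05.

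Of the 8 genes, HAND1, TWIST1, SNAI1, PRRX1 and PRRX2 fell in knockout libraries, HAND2 rose, and TWIST2 and SNAI2 did not pass. HAND1 and PRRX1 stood apart by size, at 4.55-fold and 5.87-fold lower, whereas the other 4 called genes differed by 1.26-fold to 1.53-fold. The 6 calls are 75% of the 8 genes, beside 44.2% called among all genes tested. The 5 falls stand beside a share of 22.3% for falls among all genes, and the 1 rise beside 21.9% for rises. HAND1 and PRRX1 are 2 of 416 genes, 2.66% of those tested, that fell by at least 4-fold. The median log2 fold change was -0.42 over the 8 genes and 0.00 over all genes tested. For each of the 8 genes the knockout and WT libraries did not overlap, which was also so for 73.1% of all genes tested. In bulk RNA, fewer cells of a type and less RNA per cell cannot be told apart.

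**Figure D1:**
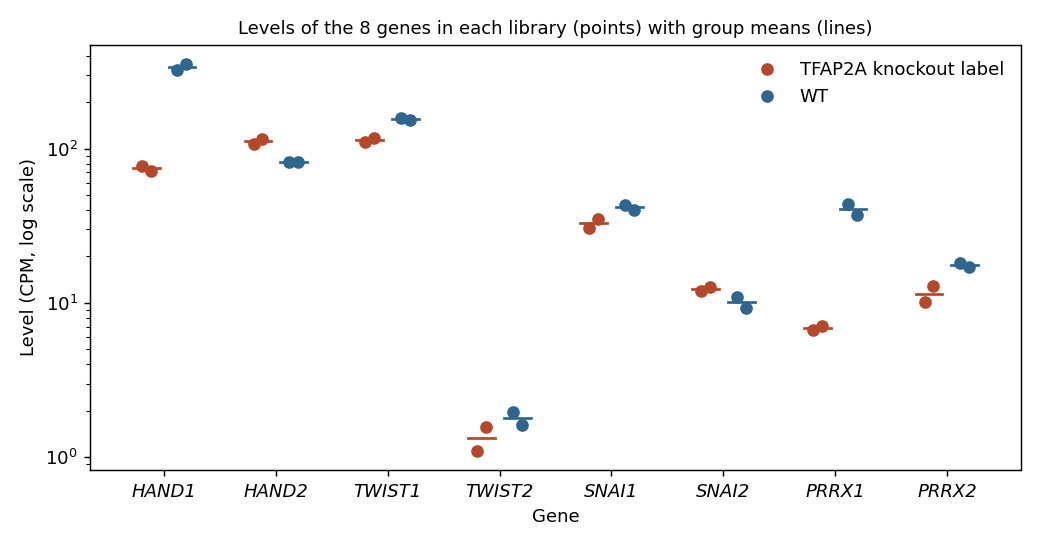
Level of each of the 8 genes in each library, in CPM on a log axis, with knockout libraries to the left of WT libraries and bars at the group means. HAND1 (76.9 and 71.8 CPM in knockout, 323 and 353 CPM in WT) and PRRX1 (6.63 and 7.06 CPM in knockout, 43.6 and 37.1 CPM in WT) show the widest gaps.

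The 2 HAND genes moved in opposite directions. HAND1 lies on chromosome 5 (153854532 to 153857824, minus strand, hg19). It was at 76.9 and 71.8 CPM in knockout libraries, from 1502.5 and 1567.5 counts, against 323 and 353 CPM in WT libraries, from 5782 and 6224 counts. Both knockout libraries lay far below both WT libraries. The means were 74.4 ± 3.61 CPM in knockout and 338 ± 20.9 CPM in WT (SD, n = 2 each), a log2 fold change of -2.18 (SE 0.06, 95% interval -2.31 to -2.06, adjusted p = 2.79e-12). HAND2 lies on chromosome 4 (174447652 to 174451378, minus strand, hg19). It was at 107 and 116 CPM in knockout libraries, against 82.1 and 82.0 CPM in WT libraries. The WT libraries were nearly level and both knockout libraries lay above them, with means of 111 ± 6.04 CPM in knockout and 82.0 ± 0.108 CPM in WT (SD, n = 2 each). The log2 fold change of HAND2 was 0.44 (SE 0.06, 95% interval 0.31 to 0.57, adjusted p = 3.28e-05). HAND2-AS1, the non-coding gene on the other strand, begins 230 bases beyond HAND2 in the table and does not overlap it there. It was at 2.07 and 1.88 CPM in knockout libraries and 1.96 and 2.64 CPM in WT libraries and did not pass (log2 fold change -0.22, adjusted p = 0.523). The sources used here do not say whether reads were counted by strand.

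The promoter windows of HAND1 and HAND2 are shown because the paralogues moved in opposite directions and because AP-2 factors have a known recognition sequence. Each window runs from 250 bases before to 50 bases after the gene's start (RefSeq, GRCh38.p14). Windows were matched by symbol for 5 of the 8 genes, namely HAND1, HAND2, TWIST2, PRRX1 and PRRX2. Capitals mark each match to the AP-2 sequence GCCNNNGGC or the E-box CANNTG. Both of these read the same on the 2 strands, so 1 search covers both strands. HAND1 is at chr5:154478178-154478477, minus strand, and HAND2 is at chr4:173530180-173530479, minus strand.
HAND1: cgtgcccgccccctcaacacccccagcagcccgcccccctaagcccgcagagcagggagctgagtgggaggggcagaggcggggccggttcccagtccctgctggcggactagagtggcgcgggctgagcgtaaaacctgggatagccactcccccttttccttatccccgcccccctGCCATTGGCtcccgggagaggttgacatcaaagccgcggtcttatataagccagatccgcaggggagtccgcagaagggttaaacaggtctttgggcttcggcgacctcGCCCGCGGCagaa
HAND2: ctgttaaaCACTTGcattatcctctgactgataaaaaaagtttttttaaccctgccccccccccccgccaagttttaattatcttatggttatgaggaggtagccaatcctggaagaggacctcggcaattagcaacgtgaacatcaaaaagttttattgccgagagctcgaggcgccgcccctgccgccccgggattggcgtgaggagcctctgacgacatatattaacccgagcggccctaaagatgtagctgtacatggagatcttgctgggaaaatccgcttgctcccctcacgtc
In the HAND1 window 2 AP-2 matches were found, GCCATTGGC beginning 72 bases before the start and GCCCGCGGC beginning 37 bases after it, and no E-box. The HAND2 window held 1 E-box, CACTTG, beginning 242 bases before the start, and no AP-2 match. The AP-2 sequence occurs in 23.2% and the E-box in 68.7% of 35116 RefSeq promoter windows of the same length. These are matches of letters and say nothing of whether a factor binds there. GC content was 66.0% in the HAND1 window and 50.3% in the HAND2 window.

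TWIST1 was the abundant gene of its pair, and TWIST2 stayed under 2 CPM in every library. TWIST1 (chromosome 7, 19155091 to 19157295, minus strand, hg19) was at 109.6 and 117 CPM in knockout libraries, against 157 and 153 CPM in WT libraries. The higher of the knockout libraries lay well below the lower WT library. The log2 fold change of TWIST1 was -0.45 (SE 0.06, 95% interval -0.57 to -0.34, adjusted p = 1.14e-05), or 1.37-fold lower. TWIST2 (chromosome 2, 239756673 to 239832244, plus strand, hg19) was at 1.10 and 1.58 CPM in knockout libraries, from 21.5 and 34.5 counts, against 1.96 and 1.62 CPM in WT libraries, from 35 and 28.5 counts. Knockout library 2 and WT library 2 were almost equal, and TWIST2 did not pass (log2 fold change -0.39, SE 0.30, adjusted p = 0.311). The 95% interval for TWIST2, -1.03 to 0.25, is wide enough to hold the change seen in TWIST1. The TWIST2 promoter window held 1 AP-2 match, GCCCCCGGC, beginning 122 bases before the start.

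SNAI1 fell by a small amount and SNAI2 did not pass. SNAI1 (chromosome 20, 48599513 to 48605420, plus strand, hg19) was at 30.5 and 35.2 CPM in knockout libraries, against 43.1 and 40.0 CPM in WT libraries. The gap between knockout library 2 and WT library 2 was about the size of the gap between the knockout libraries themselves. Its log2 fold change was -0.34 (SE 0.08, 95% interval -0.52 to -0.16, adjusted p = 0.00431). This call was lost without knockout library 1 (log2 fold change -0.24, adjusted p = 0.0536) and without WT library 1 (-0.29, adjusted p = 0.0667). SNAI2 (chromosome 8, hg19) was at 11.96 and 12.7 CPM in knockout libraries, against 11.0 and 9.33 CPM in WT libraries. Both knockout libraries lay above both WT libraries, but the groups came closer to each other than the WT libraries were to one another. SNAI2 had a log2 fold change of 0.29 (SE 0.13, 95% interval 0.00 to 0.57) with an unadjusted p of 0.0492 and an adjusted p of 0.0964 in edgeR's quasi-likelihood test.

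Both PRRX genes fell, PRRX1 by far more than PRRX2. PRRX1 (chromosome 1, 170633313 to 170708541, plus strand, hg19) was at 6.63 and 7.06 CPM in knockout libraries, from 129.5 and 154 counts, against 43.6 and 37.1 CPM in WT libraries, from 780.5 and 653.5 counts. The means were 6.84 ± 0.301 CPM in knockout and 40.4 ± 4.66 CPM in WT (SD, n = 2 each), a log2 fold change of -2.55 (SE 0.11, 95% interval -2.80 to -2.31, adjusted p = 3.15e-10). PRRX2 (chromosome 9, 132427920 to 132484951, plus strand, hg19) was at 10.1 and 12.9 CPM in knockout libraries, against 18.3 and 17.2 CPM in WT libraries. Knockout library 2 was the closer of its pair to WT, and the groups did not overlap. Its log2 fold change was -0.62 (SE 0.13, 95% interval -0.89 to -0.34, adjusted p = 0.00128), or 1.53-fold lower. The 95% intervals of PRRX1 and PRRX2 do not meet.

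The PRRX1 promoter window is shown beside that of HAND1 because these genes had the largest falls of the 8. It lies at chr1:170663881-170664180, plus strand (RefSeq, GRCh38.p14), with 53.0% GC.
PRRX1: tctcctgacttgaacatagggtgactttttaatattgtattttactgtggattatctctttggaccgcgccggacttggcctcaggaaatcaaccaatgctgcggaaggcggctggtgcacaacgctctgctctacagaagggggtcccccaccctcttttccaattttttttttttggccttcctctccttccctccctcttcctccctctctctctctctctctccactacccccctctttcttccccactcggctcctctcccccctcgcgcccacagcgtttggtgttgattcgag
Neither GCCNNNGGC nor CANNTG occurs in it, so it carries no capitals. The PRRX2 window also held neither sequence.

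**Figure D2:**
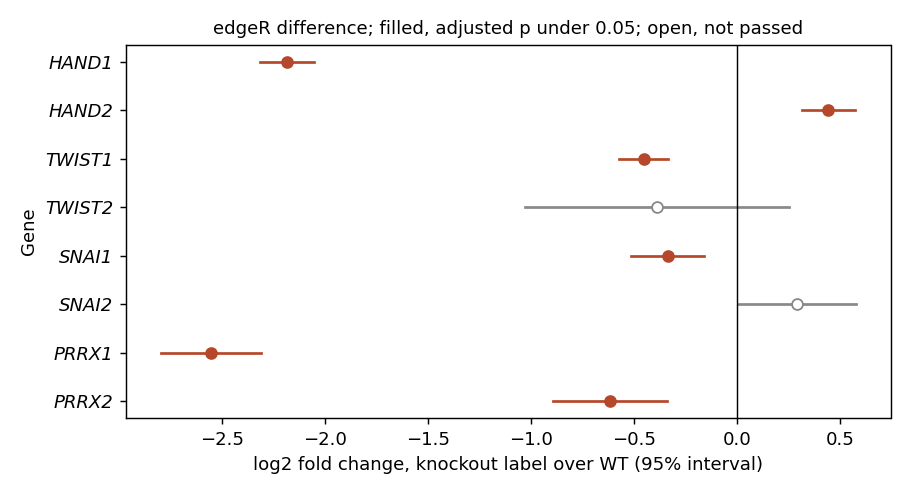
Log2 fold change of each of the 8 genes, knockout over WT, with its 95% interval as a bar and filled points for genes past the adjusted p threshold. HAND1 (-2.18) and PRRX1 (-2.55) lie far to the left, HAND2 (0.44) is the called gene on the right, and the intervals of TWIST2 and SNAI2 reach to or nearly to 0.

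Levels of different genes were compared per kilobase of merged exon, as CPM per kb, with exon lengths from GENCODE v29. In knockout libraries the order of mean level was TWIST1 at 68.0, HAND1 at 42.8, HAND2 at 40.1, SNAI1 at 19.5, PRRX2 at 8.77, SNAI2 at 5.09, PRRX1 at 0.883 and TWIST2 at 0.714 CPM per kb. In WT libraries it was HAND1 at 195, TWIST1 at 93.2, HAND2 at 29.5, SNAI1 at 24.7, PRRX2 at 13.5, PRRX1 at 5.21, SNAI2 at 4.18 and TWIST2 at 0.951 CPM per kb. HAND1 thus led in WT, and TWIST1 led in knockout libraries. HAND1 and HAND2 overlapped in knockout libraries, at 44.3 and 41.3 CPM per kb for HAND1 and 38.5 and 41.6 CPM per kb for HAND2. The other neighbours in either order did not overlap over the 2 libraries of a genotype, although PRRX1 and TWIST2 nearly met in knockout libraries (lowest PRRX1 0.856 and highest TWIST2 0.842 CPM per kb). PRRX1 has several transcripts, and its level depends on the length used. With the longest transcript in place of merged exons it was at 1.60 CPM per kb in knockout and 9.42 CPM per kb in WT, which left both orders as they were.

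The balance within each pair was measured as the share of the pair's summed level per kb that its first gene took. HAND1 took 53.5% and 49.8% of the HAND pair in knockout libraries, against 86.3% and 87.3% in WT libraries, a difference of -35.2 percentage points. The summed HAND level was 82.8 and 82.9 CPM per kb in knockout libraries, against 216 and 233 CPM per kb in WT libraries, so the rise of HAND2 did not make up the fall of HAND1. PRRX1 took 9.99% and 8.49% of the PRRX pair in knockout libraries, against 28.8% and 26.7% in WT libraries, a difference of -18.5 points. SNAI1 took 78.6% and 79.9% of the SNAI pair in knockout libraries, against 85.0% and 86.1% in WT libraries, a difference of -6.28 points. For these 3 pairs the genotypes did not overlap, and the exact two-sided permutation test gave p = 0.333, the smallest that 2 libraries against 2 allow. TWIST1 took 99.1% and 98.8% of the TWIST pair in knockout libraries, against 98.9% and 99.1% in WT libraries (exact permutation p = 1). With the longest transcript as length, the PRRX1 share was 15.5% in knockout and 41.0% in WT.

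**Figure D3:**
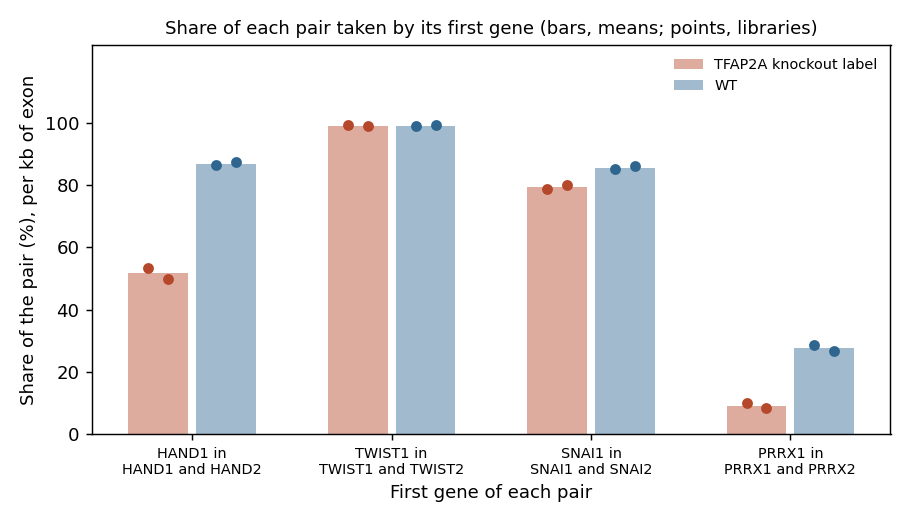
Share of each pair's summed level per kb taken by its first gene, in percent, with bars at the group means and points for libraries, knockout to the left of WT in each pair. HAND1 drops to 51.7% ± 2.57 in knockout against 86.8% ± 0.724 in WT (SD, n = 2 each), while the TWIST1 share lies near the top in both genotypes.

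The genes whose pattern over the 4 libraries lay nearest to each of the 7 genes whose mean reached 5 CPM were found by Euclidean distance between log2 CPM values centred on each gene's mean, among 11979 genes. With 4 libraries this distance mostly reflects the size and sign of the genotype difference. Nearest to HAND1 were ALPK2 (distance 0.058), LRAT (0.062) and PXDC1 (0.070). Nearest to PRRX1 were POSTN (0.156), EGF (0.169) and STOM (0.199), a looser fit than for any other of the 7 genes. POSTN encodes periostin, a matrix protein of connective tissue. HAND2 had USP2, PPARG and NR1D1 nearest (0.010 to 0.017), TWIST1 had ESYT1, SORBS3 and USP35 (0.010 to 0.024), and SNAI1 had NKD2, TMEM127 and SAP30L (0.015 to 0.040). SNAI2 had PTGER4, PPP1R16A and NCK1 (0.023 to 0.031), and PRRX2 had RAC3, RPP25 and MAPK8IP2 (0.046 to 0.098). HAND1 and PRRX1 lay 0.453 apart, and PRRX1 was the 104th nearest gene to HAND1.

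Partners and inhibitors of the bHLH proteins were read from lists of E protein and ID genes. None of the 3 E protein genes passed edgeR's quasi-likelihood test, DESeq2 or limma-voom, and 1 of the 3, TCF3, had an unadjusted edgeR p under 0.05. TCF3 was at 444 and 445 CPM in knockout libraries and 415 and 408 CPM in WT libraries. TCF4 was at 167 and 158 CPM in knockout libraries and 153 and 171 CPM in WT libraries, so its groups overlapped. Of the 4 ID genes 3 rose and ID1 did not pass, with a median log2 fold change of 0.53. Rises made up 21.9% of all genes tested. ID4 was at 183 and 184 CPM in knockout libraries, against 77.1 and 72.8 CPM in WT libraries (log2 fold change 1.29, SE 0.06, adjusted p = 2.48e-10). ID3 was at 356 and 378 CPM in knockout libraries, against 225 and 219.5 CPM in WT libraries (log2 fold change 0.72). ID2 was at 265 and 267 CPM in knockout libraries, against 213 and 211 CPM in WT libraries (log2 fold change 0.33). The summed level of the 4 ID genes was 1205 to 1217 CPM in knockout libraries and 873 to 892 CPM in WT libraries.

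Relatives of the 8 genes were mostly low. Of 16 other bHLH genes of mesoderm, blood and neurons, 3 had enough counts to test, and TCF23, MSGN1, PTF1A and FERD3L had 0 counts in all libraries. TCF21, a bHLH gene of visceral mesenchyme and epicardium, was at 0.282 and 0.252 CPM in knockout libraries, against 7.49 and 5.87 CPM in WT libraries (log2 fold change -4.50, SE 0.30, adjusted p = 2.09e-08), and entered the test through its WT level. LYL1, a bHLH gene of blood and endothelium, was at 0.461 and 1.03 CPM in knockout libraries, against 3.05 and 2.01 CPM in WT libraries (log2 fold change -1.75, adjusted p = 0.00134). LYL1 also entered the test through its WT level. Among homeobox genes related to PRRX, ALX1 and ALX4 of craniofacial mesenchyme fell. ALX4 was at 1.82 and 1.99 CPM in knockout libraries, against 15.7 and 14.9 CPM in WT libraries (log2 fold change -2.98, SE 0.17, adjusted p = 3.2e-09). ALX1 was at 16.1 and 17.6 CPM in knockout libraries, against 28.6 and 26.9 CPM in WT libraries (log2 fold change -0.72). SHOX2, named after its values were seen, had 57 counts in knockout libraries and 0 in WT libraries, at least 16.3-fold higher against 3 counts over the WT group. SHOX had 0 counts in all libraries, but its row was placed on chromosome Y, so this does not show whether the gene was expressed. The third snail gene, SNAI3, was at 2.30 and 2.15 CPM in knockout libraries and 3.16 and 3.03 CPM in WT libraries and did not pass (adjusted p = 0.0991).

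Of 12 genes for corepressors and turnover of the snail factors, 5 rose, 1 fell and 6 did not pass, with a median log2 fold change of 0.03. The shares over all genes tested were 21.9% for rises and 22.3% for falls. HDAC2, a histone deacetylase, was at 292 and 279 CPM in knockout libraries, against 217.5 and 220.0 CPM in WT libraries (log2 fold change 0.38, adjusted p = 2.13e-05). KDM1A, the histone demethylase recruited by SNAI1, was at 452 and 459 CPM in knockout libraries, against 369 and 369 CPM in WT libraries (log2 fold change 0.30). RCOR1, its partner, was at 94.3 and 92.2 CPM in knockout libraries, against 106 and 114 CPM in WT libraries (log2 fold change -0.23), a call lost without WT library 2 (adjusted p = 0.0685). Without knockout library 1, or without WT library 1, 3 of the 12 rose. ZEB1, another repressor of epithelial genes, was at 1.43 and 1.15 CPM in knockout libraries, against 3.91 and 3.57 CPM in WT libraries (log2 fold change -1.54, adjusted p = 0.000147). ZEB2 was at 18.1 and 11.8 CPM in knockout libraries and 12.02 and 10.6 CPM in WT libraries and did not pass, but passed without knockout library 2 (log2 fold change 0.68, adjusted p = 0.00343).

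Epithelial genes known as targets of SNAI or TWIST repression were mostly lower in knockout libraries. All 12 were tested, with 7 falls, 1 rise and 4 that did not pass, and with a median log2 fold change of -0.53. Falls made up 22.3% and rises 21.9% of all genes tested. CDH1, which encodes E-cadherin, was at 247 and 220.0 CPM in knockout libraries, against 394 and 453 CPM in WT libraries (log2 fold change -0.86, SE 0.08, adjusted p = 1.39e-05). The tight junction gene CLDN7 was at 46.0 and 37.0 CPM in knockout libraries, against 75.6 and 83.1 CPM in WT libraries (log2 fold change -0.94). CLDN4, another claudin, was at 76.0 and 61.6 CPM in knockout libraries, against 122 and 133 CPM in WT libraries (log2 fold change -0.89). DSP, which encodes the desmosomal protein desmoplakin, was the gene that rose (log2 fold change 0.44). It was at 3178 and 3400.1 CPM in knockout libraries, against 2334 and 2509.9 CPM in WT libraries. The summed level of the 12 genes, most of it DSP, was higher in knockout libraries. That sum was 4063 and 4192 CPM in knockout libraries, against 3492 and 3836 CPM in WT libraries. SNAI1 and CDH1 were thus both lower in knockout libraries.

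Of 21 mesenchyme and matrix genes 12 fell, 4 rose and 5 did not pass, and their median log2 fold change was -0.32. Over all genes tested 22.3% fell and 21.9% rose. POSTN was at 13.5 and 15.6 CPM in knockout libraries, against 82.4 and 77.5 CPM in WT libraries (log2 fold change -2.45, SE 0.08, adjusted p = 2.11e-11). COL6A3, a collagen VI chain, was at 58.6 and 54.3 CPM in knockout libraries, against 262 and 302 CPM in WT libraries (log2 fold change -2.32). TNC, which encodes the matrix protein tenascin C, was at 40.0 and 23.2 CPM in knockout libraries, against 180.4 and 222 CPM in WT libraries (log2 fold change -2.68, adjusted p = 0.0373). The call of TNC was lost without WT library 1 (adjusted p = 0.112), without WT library 2 (adjusted p = 0.188) and with a replicate block (adjusted p = 0.0573). The 4 that rose were VIM, CDH2, CDH11 and LUM, named after their values were seen. CDH2 was at 265 and 248 CPM in knockout libraries, against 110 and 112 CPM in WT libraries (log2 fold change 1.20). VIM was at 1023 and 1046 CPM in knockout libraries, against 764 and 787 CPM in WT libraries (log2 fold change 0.42). The log2 fold change was 0.53 for CDH11 and 0.36 for LUM. The 5 that did not pass were TAGLN, SPARC, COL1A1, COL1A2 and PDGFRA, also named after their values were seen.

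**Figure D4:**
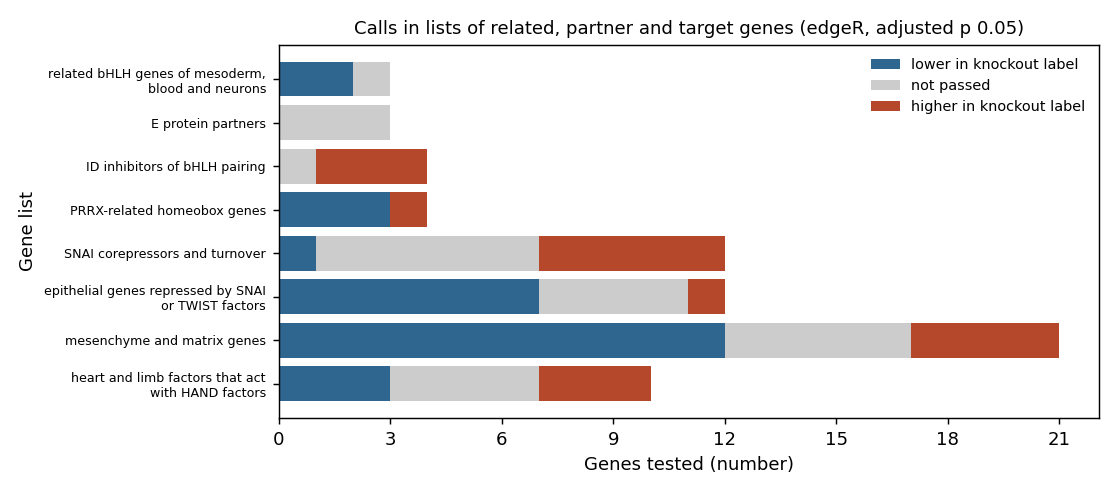
Number of tested genes that fell, did not pass or rose in knockout libraries (edgeR, adjusted p under 0.05) in 8 lists of related, partner and target genes. The ID genes hold rises with no fall, and the epithelial and mesenchyme lists hold mostly falls, at 7 of 12 and 12 of 21. Over all genes tested 22.3% fell and 21.9% rose.

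Of 10 heart and limb factors that act with HAND proteins, 3 rose, 3 fell and 4 did not pass. These counts lie near the shares over all genes tested, 21.9% for rises and 22.3% for falls. GATA4 was at 197 and 219 CPM in knockout libraries, against 107 and 86.6 CPM in WT libraries (log2 fold change 1.11, SE 0.10, adjusted p = 0.000193). ISL1 was at 14.3 and 8.36 CPM in knockout libraries, against 3.33 and 3.49 CPM in WT libraries (log2 fold change 1.71). MEF2C was at 9.06 and 9.21 CPM in knockout libraries, against 5.28 and 3.998 CPM in WT libraries (log2 fold change 0.98). GATA6, which fell, was at 84.4 and 104 CPM in knockout libraries, against 166 and 155 CPM in WT libraries (log2 fold change -0.77). NKX2-5 and TBX20 also fell, from levels under 2 CPM in WT, through which they entered the test. With a minimum mean of 1 CPM only GATA6 of these 3 was tested and called. TBX5, which marks the forelimb and heart field, did not pass, at 41.8 and 49.9 CPM in knockout libraries and 53.2 and 49.6 CPM in WT libraries. GATA6, NKX2-5, TBX20 and TBX5 were named after their values were seen.

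Markers of other cell types in which the 8 genes are known were read in the same way. Their counts of calls stand beside shares over all genes tested of 22.3% for falls and 21.9% for rises. Of 8 amnion and trophoblast markers 7 were tested, of which 5 fell and 2 rose (1 rose without knockout library 1 or without WT library 1), and their summed level was 87.3 to 136 CPM in knockout libraries and 1513 to 1609 CPM in WT libraries. GABRP made up most of that sum, at 78.3 and 47.0 CPM in knockout libraries against 1126 and 1207 CPM in WT libraries, and its call was lost without WT library 1 (adjusted p = 0.0879) or 2 (0.124). VTCN1 was at 19.9 and 15.1 CPM in knockout libraries, against 344 and 353 CPM in WT libraries (log2 fold change -4.32, adjusted p = 6.74e-09). The 5 amnion and trophoblast markers that fell include TFAP2C, which the titles of the knockout samples name. Of 10 neural crest markers 7 were tested, 5 fell and 2 did not pass, and their sum was 204 to 217 CPM in knockout libraries and 482 to 511 CPM in WT libraries. TFAP2B made up most of the WT sum, at 45.7 and 40.5 CPM in knockout libraries against 261 and 287 CPM in WT libraries. ERBB3, named after its values were seen, was the largest part of the knockout sum and did not pass. It was at 100 and 100 CPM in knockout libraries and 106 and 110 CPM in WT libraries. SOX10, FOXD3 and PAX3 had at most 7.5 counts per genotype. Endothelium markers summed to 16.8 to 17.8 CPM in knockout libraries and 40.9 to 42.8 CPM in WT libraries. Of these, 2 of 3 tested were lower, and PECAM1 and SOX18 were at 0. CDH5 was at 0.333 and 0.596 CPM in knockout libraries, against 11.0 and 12.8 CPM in WT libraries (log2 fold change -4.68). CDH5 entered the test through its WT level. KDR was at 1.66 and 2.89 CPM in knockout libraries, against 16.5 and 16.4 CPM in WT libraries (log2 fold change -2.84). Most of the knockout sum was TEK, named after its values were seen, which did not pass. TEK was at 15.3 and 12.9 CPM in knockout libraries and 15.2 and 11.6 CPM in WT libraries.

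Sums of 3 other marker lists were higher or overlapped. Calls in these lists stand beside the same shares, 22.3% for falls and 21.9% for rises over all genes tested. Lateral and paraxial mesoderm markers summed to 63.5 to 76.4 CPM in knockout libraries and 26.9 to 31.9 CPM in WT libraries, with 3 of 8 tested lower, 2 higher and TBXT at 0 in all libraries. FOXC1 was at 37.0 and 48.0 CPM in knockout libraries, against 10.8 and 10.8 CPM in WT libraries (log2 fold change 1.97). FOXC2 was at 13.4 and 19.4 CPM in knockout libraries, against 1.87 and 1.62 CPM in WT libraries (log2 fold change 3.23). These 2 genes made up most of the knockout sum. The 3 that fell, named after their values were seen, were low. FOXF2 was at 0.154 and 0 CPM in knockout libraries, against 2.35 and 1.13 CPM in WT libraries, and entered the test through its WT level. TBX6 was at 1.13 and 1.10 CPM in knockout libraries, against 2.88 and 2.67 CPM in WT libraries. MEOX1 was at 3.35 and 2.66 CPM in knockout libraries, against 4.89 and 4.62 CPM in WT libraries. Cardiac muscle markers summed to 69.3 to 72.8 CPM in knockout libraries and 50.4 to 56.2 CPM in WT libraries, with 3 of 7 tested higher (1 without WT library 2) and 2 lower. Sympathetic neuron markers summed to 8.32 to 12.01 CPM in knockout libraries and 7.30 to 8.62 CPM in WT libraries, with 3 of 6 higher and 3 lower (1 lower without WT library 2). The part of any of these cell types in the levels of the 8 genes was not tested.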

How the data were processed

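The authors deposited 1 table of estimated counts per gene. TopHat, HOMER, DESeq2 and the build hg38 are named, without versions, in the submitters' processing notes. The annotation and strand setting were not stated there. Values were multiples of 0.5, 37.0% of them not whole, and were rounded. Gene positions did not match GRCh38 (4.34% of 22889 genes began within 2000 bp), and 42 rows carried other contig names, as hg19 has them, so positions are printed as hg19.

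Genes kept by filterByExpr (15643) were scaled with TMM and tested with edgeR 4.0.16 (robust glmQLFit, glmQLFTest, genotype alone) in R 4.3.3, with a threshold of 0.05. A gene high only in knockout or only in WT libraries could pass this filter through that genotype, and such genes are counted among the calls. The SE is the log2 fold change over the square root of F. Residual degrees of freedom were 2 and the common biological coefficient of variation 0.0577. Replicates differed by more than sampling noise (chi-square per degree of freedom 4.16 in knockout, 4.31 in WT). On simulated counts the fit held its nominal rate when spread followed the fitted trend, and gave more false calls than nominal when spread varied gene by gene.

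The 8 genes and all lists were chosen with earlier results of these data known. Named genes were the 8, TFAP2A, TFAP2C, CDH1, antisense neighbours, up to 3 genes per list with the largest called change and at least 5 CPM in the higher group (otherwise the 2 most abundant), and the 3 nearest patterns; other names are marked or came after values were seen. SNAI3-AS1, at 2.54 and 3.57 CPM in knockout and 2.04 and 3.01 CPM in WT, did not pass. TWIST1-AS1, HAND1-AS1 and PRRX2-AS1 were looked up by symbol and were not found among the genes counted. Alternatives were RLE and upper-quartile scaling, DESeq2 1.42.0, limma-voom 3.58.1, other filters, unrounded values, no robust estimation, a replicate block and leaving out each library. Intervals and floors cover counting error and library spread only.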

Additional observations from a re-analysis of the deposited data

How the results depend on the processing

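HAND1 (log2 fold change -2.25 to -2.12), HAND2 (0.39 to 0.50), TWIST1 (-0.50 to -0.41), PRRX1 (-2.67 to -2.44) and PRRX2 (-0.80 to -0.46) kept their calls in all 13 alternatives, and TWIST2 and SNAI2 passed in none. Leaving out a library leaves a lone sample that is assumed to vary like the other group. Of the 8 genes, 4 to 5 were then lower, and 1 was higher in every alternative. Over all genes, leaving out a library gave 2697 to 2919 lower and 2535 to 2922 higher, and DESeq2 called 2263 higher against 3427 in edgeR; the cause was not tested. Same-numbered libraries showed no shared deviation (correlation of same-numbered deviations -0.0501), but 2 libraries per genotype cannot exclude that they were paired. With a replicate block 3154 genes were lower and 3050 higher, with 5 of the 8 lower and 1 higher. With a library left out, the sign turned within the range for TCF4 (-0.078 to 0.082), for HAND2-AS1 (-0.42 to 0.00098) and for the TWIST1 share difference (-0.175 to 0.126 points), none of which passed a test. With DESeq2, cardiac muscle markers had 1 rise (3 with edgeR), sympathetic neuron markers 1 fall (3) and amnion and trophoblast markers 1 rise (2). Without WT replicate 2 the first 2 counts were also 1. The amnion count was 1 without knockout replicate 1 or WT replicate 1. SHOX2 was not tested with a minimum mean of 1 CPM, and 1 endothelium marker was higher with no filter (0 with the filter). The depth limits TWIST2, whose interval allows changes of either sign.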
